A study of Mus musculus with 8 samples.

Results

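The granins are acidic soluble proteins of the dense-core secretory granules of endocrine cells and neurons, and the transcripts of 7 of them (Chga, Chgb, Scg2, Scg3, Scg5, Vgf and Pcsk1n) were measured among 23361 genes in mouse gastric squamous-columnar junction (SCJ) cancers and in normal SCJ tissue. The SCJ is the line where the squamous forestomach meets the glandular stomach. Every granin was higher in each of the 5 cancers than in any of the 3 controls, as were 14.4% of the 14357 genes tested. Together they made up between 1.51% and 4.31% of all expression in the tumours and between 0.0138% and 0.0212% in the controls. The 7 genes were selected on this same difference, with their levels in these 8 samples already known, so the levels below are a description and no test of them is given.

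The cancers carried the genotype label Trp53-/-Rb1-/-. They were SCJ tumours of Lgr5eGFP-Ires-CreERT2 Trp53loxP/loxP Rb1loxP/loxP Ai9 mice, in which tamoxifen activates a Cre recombinase made under the Lgr5 locus, a stem cell gene. Deletion therefore took place in Lgr5+ cells and was passed to their descendants, while stroma, vessels and other epithelium in a sample kept both genes. Tumours were located by the tdTomato reporter of the Ai9 allele. Controls were the SCJ of wild-type stomachs paired by age. Genotype, Cre and reporter alleles and tumour state differ together between the groups and cannot be told apart. The study's description used here does not say whether the control mice received tamoxifen, and gives no sex or strain for either group. Poly(A)+ RNA was sequenced, and levels were given as FPKM (mapped fragments relative to transcript length and to library size), rounded to whole numbers. Since FPKM is scaled by transcript length, levels of different genes within a sample can be set side by side. In bulk tissue a difference in the number of cells of a type cannot be told apart from a difference in RNA per cell.

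Granins enter the regulated secretory pathway with prohormones. In the trans-Golgi network they aggregate at mildly acidic pH and high calcium, and the aggregates bud into granules that are stored until a stimulus releases them. Inside the granule the convertases encoded by Pcsk1 and Pcsk2 cut prohormones and the granins themselves, and the carboxypeptidase encoded by Cpe and the amidating enzyme encoded by Pam trim the products. In the stomach, chromogranin A (Chga) is the usual marker of the scattered endocrine cells of the glands, which make ghrelin, somatostatin, histamine, serotonin or gastrin.

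The labels and tissue were examined first. Rb1, a regulator of the cell cycle that was deleted in the cancers, had FPKM of 4, 4, 5, 6 and 4 in cancers 1 to 5 and 9, 9 and 10 in controls 1 to 3, and every cancer lay below every control (log2 change -0.90, SE 0.16, limma adjusted p = 0.0059). Trp53, which encodes p53, had FPKM of 12, 22, 12, 30 and 12 in the tumours and 16, 17 and 19 in the controls, a difference within the spread (log2 change -0.08, limma adjusted p = 0.87) that became 0.86 when libraries were rescaled to a common sum (TPM). With that rescaling the median log2 change of all tested genes, called the shift of all genes below, was 0.81, where it had been -0.04. With TPM Rb1 was at -0.05 and no longer passed the threshold (limma adjusted p = 0.84). Relative to the shift Rb1 stood at -0.86 and Trp53 at 0.05. Summed FPKM ranged from 403569 to 573858 in the tumours and from 887141 to 992550 in the controls, and the 10 most abundant genes took 11.1% to 19.6% and 39.3% to 44.3% of it. Read numbers are unknown, so no counting error or limit of detection can be given. The sum of 10 gastric gland markers was 694, 78716, 6015, 55566 and 16662 in cancers 1 to 5 and 240752, 158537 and 224870 in controls 1 to 3, so these markers differed widely among the cancers. Pgc, the pepsinogen C gene, is listed at 0 in controls 2 and 3 but at 28832 in control 1, and an exact 0 in these values can be a failed estimate.

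In the mm10 build (GENCODE M21 annotation) the granins lie at 7 separate loci. Chga (chr12:102554969-102565028, plus strand) has 8 exons, all of them with coding sequence. Chgb (chr2:132781278-132795079, plus strand) has 5. Scg2 (chr1:79434669-79440120, minus strand) and Vgf (chr5:137030295-137033351, plus strand) each have 2 exons, with the whole coding sequence of 1851 bases in 1 of them. Scg3 (chr9:75643189-75684056, minus strand) is the most divided, with 12 exons. Scg5 (chr2:113776362-113829121, minus strand) has 6 exons and the shortest coding sequence, 636 bases, and Pcsk1n (chrX:7919822-7924410, plus strand) has 3 exons. Pcsk1n overlaps Eras and Scg3 overlaps the unconfirmed gene Gm37871, both on the opposite strand. Eras is listed at 0 in all 8 samples, and whether the authors counted by strand is not given in the sources used here.

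Because these genes were high together, their promoters were searched for letters known from granin promoters. RefSeq windows (GRCm38.p6) from 250 bases before to 50 bases after the transcription start were at hand for 6 of the 7 genes, all but Vgf. The cyclic AMP response element (TGACGTCA), which binds CREB and related factors, stood in the 250 bases before the start of 2 of these 6, Scg2 and Chgb, and in 1.55% of 32851 windows of all genes. Its 5-letter part TGACG, searched on both strands and contained in the full element, stood in 5 of the 6 and in 17.8% of all windows. The match nearest to and before the start of each of these 5 genes is shown, since it holds the letters they share, in a 30-base stretch, 5′ to 3′ on the strand of the gene, with the element in capitals.
Scg2, position -68, chr1:79440076-79440105, minus strand: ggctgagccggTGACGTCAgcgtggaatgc
Chgb, position -72, chr2:132781559-132781588, plus strand: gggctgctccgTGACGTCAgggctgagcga
Chga, position -44, chr12:102554885-102554914, plus strand: ggggcggtcctaTGACGtaatttcctgggt
Scg3, position -30, chr9:75684069-75684098, minus strand: gcgctgggtcgcTGACGccatcctcacgcc
Scg5, position -175, chr2:113829249-113829278, minus strand: aaaggaggtaaaTGACGttcataggggtcg
Positions are those of the first base of the element, counted back from -1 at the base before the RefSeq start. Counted from the RefSeq start, Scg2 and Chgb carry the full palindrome at nearly the same distance. Chga and Scg3 carry only the TGACG part, closer to that start, and Pcsk1n has neither. The GENCODE start of Chga lies 28 bases downstream of the RefSeq start, so its TGACG stands farther from the GENCODE start. The GENCODE start of Scg2 lies 94 bases and that of Chgb 364 bases upstream of the RefSeq start, so that both full elements fall inside the longer first exon of GENCODE. Where a promoter begins therefore depends on the annotation.

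A longer stretch of the Chga promoter is shown because it holds its TGACG and 2 GC boxes (GGGCGG, the letters bound by Sp1) within 120 bases, all in capitals.
Chga, chr12:102554821-102554940, plus strand: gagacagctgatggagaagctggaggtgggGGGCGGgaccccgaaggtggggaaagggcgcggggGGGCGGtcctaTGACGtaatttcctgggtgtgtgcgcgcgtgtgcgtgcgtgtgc
GC boxes stood in 4 of the 6 granin promoters (Chga, Chgb, Scg5 and Pcsk1n) and in 32.7% of all windows. The E-box CANNTG, bound by basic helix-loop-helix factors such as the product of Neurod1, stood in 5 of the 6 and in 66.2% of all windows. No TATA box (TATAAA, read in the direction of transcription) stood in the 250 bases before the RefSeq start of these 6 genes, compared with 7.59% of all windows. Chga has these letters at position 6, after its RefSeq start. They lie before its GENCODE start, which is 28 bases downstream of the RefSeq start. Of the 6 genes only Scg2 matched either part of RE1, the element bound by REST, a repressor of neuronal genes. The right part (GGACAGC, in 5.28% of all windows before the start) and the left part (TTCAGCACC, in 0.371% of the windows when the 50 bases after the start were included) lay side by side across the start, on the strand opposite to the gene. No base lay between them. The parts were searched on their own, and their spacing was not compared with that of a whole RE1.
Scg2, position -14, chr1:79440018-79440047, minus strand: ccgaggaGCTGTCCGGTGCTGAAacggccc
A match of letters is not a measured binding site, and binding was not measured here.

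**Figure D1:**
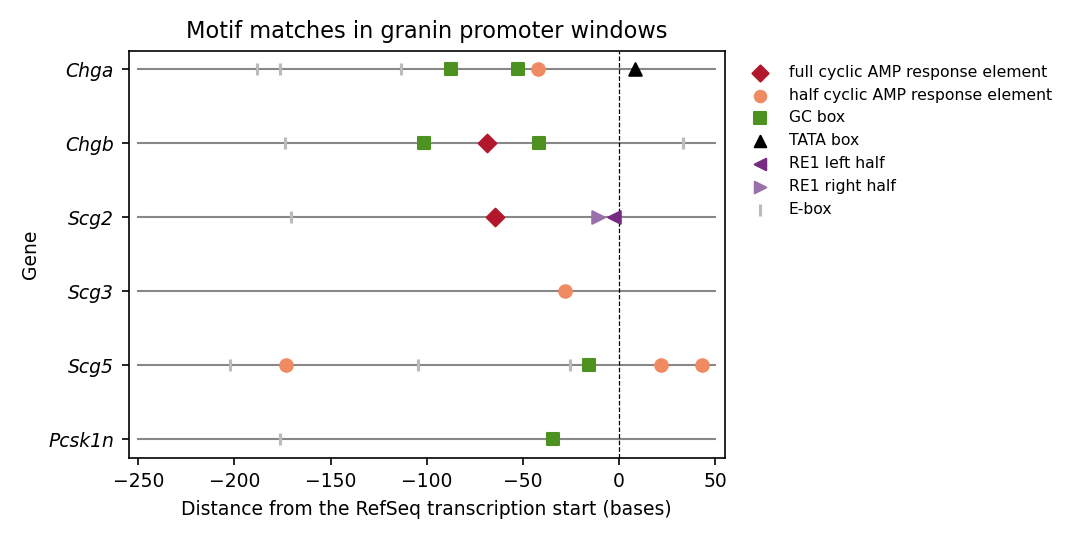
Matches to 7 short motifs in the promoter windows of 6 granins. The horizontal axis is the distance in bases from the RefSeq transcription start, each line is a gene and each symbol a match. TGACG matches that are part of a full element are not drawn separately. The full cyclic AMP response elements of Chgb and Scg2 begin at positions -72 and -68, and the RE1 parts of Scg2 lie across the start.

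The chromogranins came first by level. Chga encodes chromogranin A, which condenses granule cargo and is cut into peptides such as pancreastatin and catestatin. Its FPKM was 7185, 3247, 10826, 12715 and 12837 in cancers 1 to 5 and 108, 152 and 134 in controls 1 to 3. Cancer 2 was the lowest of the cancers and still lay 21.4 times above the highest control. The mean was 9362 ± 4111 FPKM (SD, n = 5) against 131 ± 22.1 (SD, n = 3), a ratio of means of 71.3 and a log2 change of 5.998 (the difference of the mean log2(FPKM + 1), with a standard error, SE, of 0.50). With quantile normalization this log2 change was 7.30. Chga was the most abundant of all 23361 transcripts in cancer 5, the second in cancer 3 and the third in cancers 1 and 4. It ranked 9 in cancer 2 and between 546 and 918 in the controls.

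Chgb encodes chromogranin B, a second bulk protein of the granule matrix. It was measured at 7002, 4256, 5738, 1725 and 2272 FPKM in the tumours and at 7, 21 and 8 in the controls. Unlike the other 6 granins, it was lowest in cancer 4 and not in cancer 2. Its mean was 4199 ± 2240 FPKM in the tumours and 12 ± 7.81 in the controls. The ratio of means, 350, was the largest of the 6 granins with a fold, and it lies between 336 and 365 if the rounding of the deposited values is allowed for. The log2 change was 8.30 (SE 0.56).

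The secretogranins followed at lower levels. Scg2 encodes secretogranin II, the precursor of secretoneurin, and had FPKM of 311, 178, 505, 373 and 736 in the tumours and 3, 4 and 3 in the controls. The ratio of means was 126 (110 to 148 with rounding) and the log2 change 6.46 (SE 0.42). Scg3 encodes secretogranin III, which binds chromogranin A to the cholesterol-rich granule membrane. Its FPKM was 667, 269, 599, 329 and 353 in the tumours and 2, 3 and 2 in the controls. The lowest cancer exceeded the highest control 89.7 times, the widest gap among the granins for which such a ratio can be formed. Chgb followed at 82.1, and rounding of the Scg3 control value of 3 can reverse that order. The ratio of the Scg3 means was 190 (156 to 242 with rounding) and the log2 change 6.98 (SE 0.33).

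Vgf encodes a neurotrophin-inducible protein that is cut into several neuropeptides. It had FPKM of 237, 116, 128, 220 and 240 in the cancers (188 ± 61.1, SD, n = 5) and is listed at 0 in all 3 controls. No fold is given for it, because an exact 0 may not be a true absence. The highest Vgf value among the cancers was 2.07 times the lowest, the narrowest ratio of the family.

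Scg5 and Pcsk1n are the members that act on the convertases. Scg5 encodes the chaperone that the convertase PCSK2 needs to mature, and had FPKM of 1156, 509, 812, 994 and 2325 in the tumours and 9, 6 and 6 in the controls. The mean was 1159 ± 695 FPKM against 7 ± 1.73, a ratio of 166 and a log2 change of 7.02 (SE 0.45). Its level in cancer 5 was 4.57 times that in cancer 2, the widest ratio of highest to lowest cancer in the family. Pcsk1n encodes proSAAS, whose carboxyl-terminal peptide inhibits the convertase PCSK1. Its FPKM was 181, 85, 306, 134 and 353 in the tumours and 3, 2 and 3 in the controls. The ratio of its means was 79.4 (66.9 to 97.8 with rounding) and the log2 change 5.69 (SE 0.46).

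**Figure D2:**
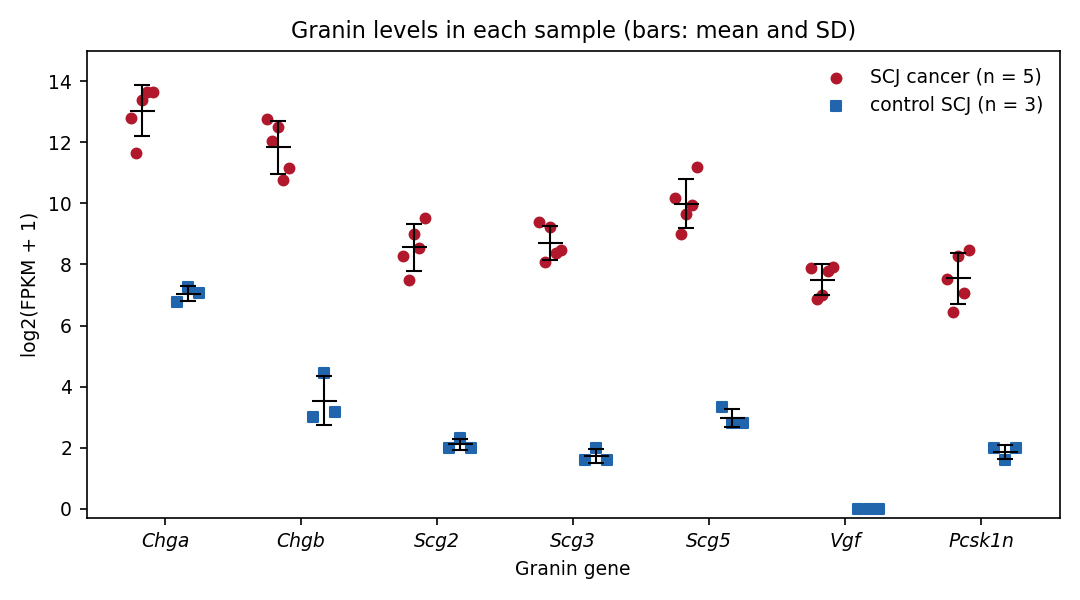
Level of each granin in each sample, as log2(FPKM + 1) on the vertical axis, with the 7 genes on the horizontal axis. Circles are the 5 cancers and squares the 3 controls, in the order of their numbers from left to right, and black bars give the mean and SD (none for the Vgf controls, which are all listed at 0). The groups do not overlap for any of the 7 genes, and cancer 2 is the lowest cancer for all but Chgb.

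For all 7 granins the groups did not overlap, and 7 of 7 passed the filter for low values. The same holds, with the cancers above, for 14.4% of the 14357 genes tested. In limma, a linear model fitted to all tested genes with Benjamini-Hochberg adjustment at 0.05, 34.5% of genes were called, 16.2% higher and 18.3% lower in the cancers. The granins were chosen for this difference, so nothing is read from their own share. Their median log2 change was 6.72 over the 6 genes with a control above 0, and 6.98 over 7 with Vgf as fitted, which is no bound. The median of all tested genes was -0.04. After rescaling to TPM the median of the 6 granins was 7.71, or 6.90 relative to the shift of all genes.

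Within the cancers the mean level decreased in the order Chga, Chgb, Scg5, Scg3, Scg2, Pcsk1n and Vgf. The ranges of all neighbours in this order overlapped. Chga exceeded Chgb in 4 of 5 cancers, Chgb exceeded Scg5 in 4, Scg5 exceeded Scg3 in 5 and Scg2 exceeded Pcsk1n in 5. Scg3 and Scg2 (3 of 5), and Pcsk1n and Vgf (2 of 5), had no steady order. In the controls the order was Chga, Chgb, Scg5, Scg2, Pcsk1n, Scg3 and Vgf. Chga stood clear of Chgb, Scg5 of Scg2 and Scg3 of Vgf in all 3 controls, while the ranges of Chgb and Scg5, of Scg2 and Pcsk1n and of Pcsk1n and Scg3 overlapped. Scg2, Scg3 and Pcsk1n were at 2 to 4 FPKM in the controls, where rounding alone can set the order.

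The make-up of granin RNA differed among the cancers. Summed over the 7 genes, granin FPKM was 16739, 8660, 18914, 16490 and 19116 in cancers 1 to 5 and 132, 188 and 156 in controls 1 to 3. Cancer 2 held about as much Chgb as Chga or more, with 1.31 Chgb per Chga, and cancer 1 came next with 0.975. The ratio was 0.530 in cancer 3, 0.177 in cancer 5 and 0.136 in cancer 4. The controls stood at 0.0648, 0.138 and 0.0597, so that cancer 4 fell within the range of the controls and the other cancers lay above it. Chga alone supplied 37.5% to 77.1% of granin FPKM in the tumours and 80.9% to 85.9% in the controls. Chga and Chgb together took 79.0% to 87.6% in the tumours and 87.1% to 92.0% in the controls, a more even share than either gene alone. Scg5 took 12.2% in cancer 5 and 4.29% to 6.91% in the other cancers. The ratio of Scg3 to Scg2 was 2.14, 1.51, 1.19, 0.882 and 0.480 in cancers 1 to 5 and between 0.667 and 0.75 in the controls. The 5 cancers were therefore unlike each other in which granin accompanied Chga, although all 5 were high in all 7.

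**Figure D3:**
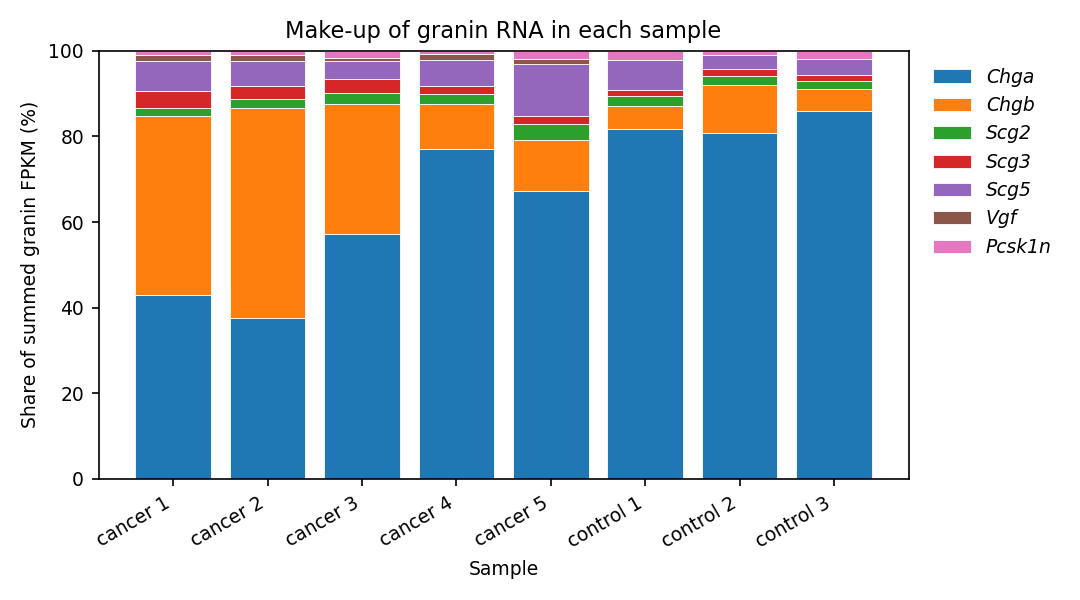
Share of each granin in the summed granin FPKM of a sample, in percent on the vertical axis, for cancers 1 to 5 and controls 1 to 3 on the horizontal axis. Chgb takes 41.8% and 49.1% in cancers 1 and 2 but 10.5% and 11.9% in cancers 4 and 5, and Chga takes 80.9% to 85.9% in the controls.

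The spread among the cancers was set beside that of other genes with a clear level in them. Over the 1339 genes with a mean of at least 50 FPKM in the cancers, the median SD of log2(FPKM + 1) across the 5 cancers was 0.44. The SDs of the granins were 0.84 for Chga, 0.87 for Chgb, 0.77 for Scg2, 0.57 for Scg3, 0.80 for Scg5, 0.51 for Vgf and 0.84 for Pcsk1n. Chgb was thus more variable than 83.05% of these genes, and Vgf more than 59.7%. With quantile normalization the SD was 1.41 for Chga, 1.49 for Chgb and 0.88 for Scg3, over 1.5 times the values above. Cancer 2 accounted for much of the spread of Chga, whose SD was 0.39 without it. Cancer 5 did so for Scg5, with an SD of 0.51 without it.

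Cancer 2, with the lowest summed granins, also had the highest gland marker sum of the cancers (78716) and the highest sum of 8 stroma and smooth muscle markers (1273, where the other 4 ranged from 91 to 551 and the controls from 326 to 405). Cancer 4 came second in gland markers (55566) but had 16490 granin FPKM, near the 16739 of cancer 1, in which gland markers were almost lacking (694). The part of admixed normal tissue in the granin levels was not tested.

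**Figure D4:**
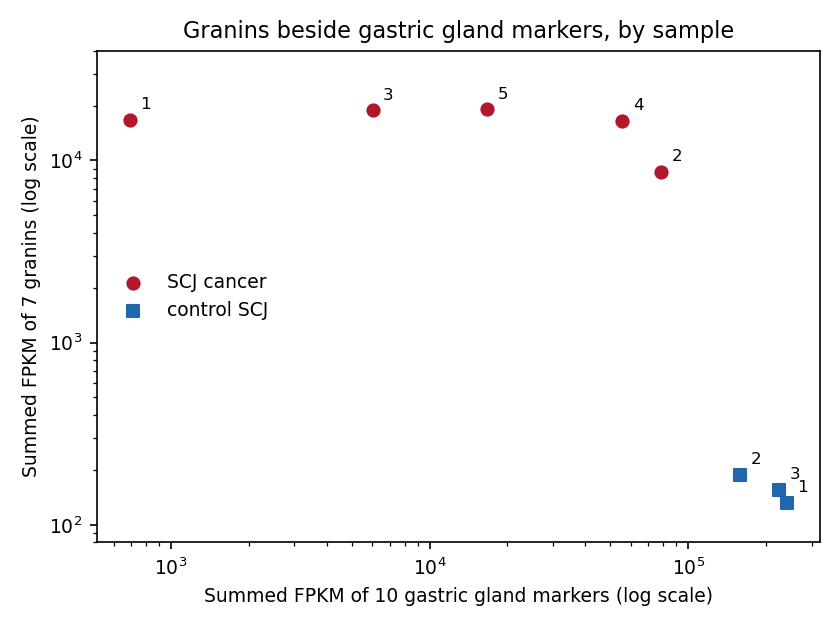
Summed FPKM of the 7 granins (vertical axis, log scale) against summed FPKM of 10 gastric gland markers (horizontal axis, log scale), with the number of each cancer (circles) and control (squares) beside its point. Granins lie between 8660 and 19116 in cancers whose gland markers range from 694 to 78716, and at 132 to 188 in the controls.

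Other cells that use granins were looked for by their markers. The counts of markers called stand beside 16.2% higher and 18.3% lower over all tested genes. Among the enteric neuron markers Chat and Slc18a3, of cholinergic neurons, and Rbfox3 are listed at 0 in all 8 samples. The summed FPKM of the list was 43 to 123 in the tumours and 7 to 12 in control SCJ. Of the 8 members tested 4 rose and 4 were not called. Those that rose were Gap43, a growth cone protein (47, 25, 48, 20 and 52 against 1, 1 and 0), the neurofilament genes Nefm (17, 5, 12, 4 and 14) and Nefl (27, 8, 20, 1 and 6), both listed at 0 in the controls, and the receptor gene Ret (9, 5, 8, 4 and 15 against 1 in each control), with limma adjusted p of 0.00078, 0.0026, 0.019 and 0.0058. Enteric glia markers summed to 1 to 23 in the tumours and 34 to 49 in the controls, with Sox10, Foxd3 and Cdh19 at 0. The adrenal medulla markers Dbh and Pnmt, which define cells that make noradrenaline and adrenaline, are listed at 0 throughout, and the list summed to 7 to 22 in the tumours and 2 to 4 in control SCJ. Of its 4 members tested 1 rose and 1, Gata3, which did not exceed 1 FPKM, fell. Slc18a1 rose (5, 2, 4, 3 and 12, listed at 0 in the controls, limma adjusted p = 0.0061), and Th, which makes the precursor of dopamine, was at 9, 8 and 1 in cancers 1 to 3 and at 0 elsewhere (limma adjusted p = 0.20). Islet markers of the pancreas had summed levels of 8291, 17729, 8890, 99 and 37 FPKM in the numbered order of the cancers, while the controls had 4, 50 and 4. Nearly all of this was Gcg, the proglucagon gene (8250, 17443, 8054, 89 and 36 in the cancers), and Ppy, the pancreatic polypeptide gene (836 in cancer 3), both of which gut endocrine cells also express. The beta cell genes Ins1, Mafa, Nkx6-1, G6pc2 and Ucn3 are listed at 0 in all 8 samples, and Ins2, Iapp and Slc2a2 did not exceed 1 FPKM. Pdx1, a factor of pancreas and duodenum, was at 8 and 14 in cancers 1 and 2, at 0 in the other 3 and at 1, 1 and 0 in the controls. Of the 3 islet markers tested (Gcg, Ppy and Pdx1) 1, Gcg, was called higher, near the threshold (limma adjusted p = 0.048). Its groups overlapped, with 36 FPKM in cancer 5 and 48 in control 2. The 12 liver markers summed to 1844 to 4466 in the tumours and 1272 to 1739 in control SCJ, where Apoa1 supplied most of the sum (1203, 1641 and 1622). Of the 7 members tested 3 rose, namely Ahsg (2386, 647, 812, 492 and 2886 against 1, 2 and 1), Ttr (2011, 890, 1073, 668 and 455 against 66, 94 and 74) and Tat (11, 8, 6, 6 and 34, listed at 0 in the controls), with limma adjusted p of 0.00039, 0.0021 and 0.0033. Fga, Fgg, Apoh, Serpina1a and Cps1 were above 0 only in cancer 5. The part of these cells in the granin levels was not tested.

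The partners on which granins act were compared next. In the list of convertases and peptide-modifying enzymes 17 of 18 genes were tested, of which 9 rose, 6 fell and 2 were not called, where 16.2% of all tested genes were higher and 18.3% lower. The median log2 change of the list was 1.23, beside -0.04 for all genes. Pcsk1, the convertase inhibited by proSAAS, had FPKM of 475, 171, 566, 310 and 707 in the tumours and 2, 3 and 1 in the controls, and rose by 7.12 on the log2 scale (SE 0.47, limma adjusted p = 0.00036). Pcsk2, the convertase that needs Scg5, had 158, 182, 96, 169 and 280 against 1 in each control (log2 change 6.39, SE 0.30, limma adjusted p = 0.00013). Cpe, the granule carboxypeptidase, had 4082, 1688, 4895, 2039 and 6183 against 57, 66 and 57 (log2 change 5.79, SE 0.46, limma adjusted p = 0.00060). Pam, the amidating enzyme, had 425, 137, 394, 185 and 446 against 30, 30 and 27 (log2 change 3.26, SE 0.42, limma adjusted p = 0.0023). Furin, Pcsk6 and Cpd had the largest falls of the list. Furin, which works in the trans-Golgi network of most cells, had FPKM of 19, 37, 21, 35 and 39 in the tumours and 238, 555 and 541 in the controls (log2 change -3.80, SE 0.37, limma adjusted p = 0.0011). Cpd, the carboxypeptidase of the same compartment, fell by 1.44 on the log2 scale (limma adjusted p = 0.013). It missed the threshold without control 1 (adjusted p = 0.055) and with TPM (log2 change -0.49, limma adjusted p = 0.16). Relative to the shift of all genes Cpd then stood at -1.30. Pcsk6 stood at the threshold (log2 change -1.82, limma adjusted p = 0.0499) and crossed it when any sample but cancer 2 was left out (adjusted p up to 0.13). It was also lost with a pseudocount of 0.1, without a filter, with TPM, with quantile normalization, without the variance trend and with the replicate block (limma adjusted p from 0.0503 to 0.15). With TPM, 9 genes of the list rose and 1 fell, and with quantile normalization 9 rose and 3 fell.

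Each of these granins was then set beside its partner. There were 7.32, 2.80, 8.46, 5.88 and 8.30 Scg5 FPKM per Pcsk2 FPKM in cancers 1 to 5 and 9, 6 and 6 in the controls. Cancer 2, which had the second highest Pcsk2 but the lowest Scg5, stood below the rest. Pcsk1n per Pcsk1 was 0.381, 0.497, 0.541, 0.432 and 0.499 in the cancers, the steadiest of these ratios. In the controls it was 1.5, 0.667 and 3, from values of 1 to 3 FPKM. Scg3 per Cpe, a pair that meets at the granule membrane, was 0.163, 0.159, 0.122, 0.161 and 0.0571 in the tumours and 0.0351, 0.0455 and 0.0351 in the controls.

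Of 37 genes of dense-core granule biogenesis and exocytosis, 34 were tested, of which 17 rose, 5 fell and 12 were not called (median log2 change 0.87), beside 16.2% higher and 18.3% lower over all tested genes. The count that fell is thus no larger a share than over all genes. Resp18, an endocrine granule protein, had FPKM of 2883, 1241, 3114, 1301 and 2310 in the tumours and 9, 15 and 11 in the controls, levels above those of all granins but Chga and Chgb on average (log2 change 7.34, SE 0.37, limma adjusted p = 0.00017). Ptprn, a granule membrane protein, rose by 6.68 (limma adjusted p = 0.00033) and Snap25, a SNARE protein of exocytosis, by 4.66 (limma adjusted p = 0.00041). Sytl4 and Rab27b, which dock granules at the plasma membrane, fell by 2.81 (adjusted p = 0.0077) and 1.99 (limma adjusted p = 0.015). Rab27b missed the threshold without control 1 (adjusted p = 0.064) or control 2 (adjusted p = 0.0503). Rab3d, a protein of zymogen granules, fell by 1.06 (limma adjusted p = 0.018), but missed the threshold without control 2 (adjusted p = 0.052) or control 3 (adjusted p = 0.071) and with quantile normalization (log2 change -0.60, limma adjusted p = 0.095), and with TPM stood at -0.10, or -0.91 relative to the shift of all genes. With TPM 23 genes of the list rose and 2 fell, and with quantile normalization 17 rose and 2 fell.

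**Figure D5:**
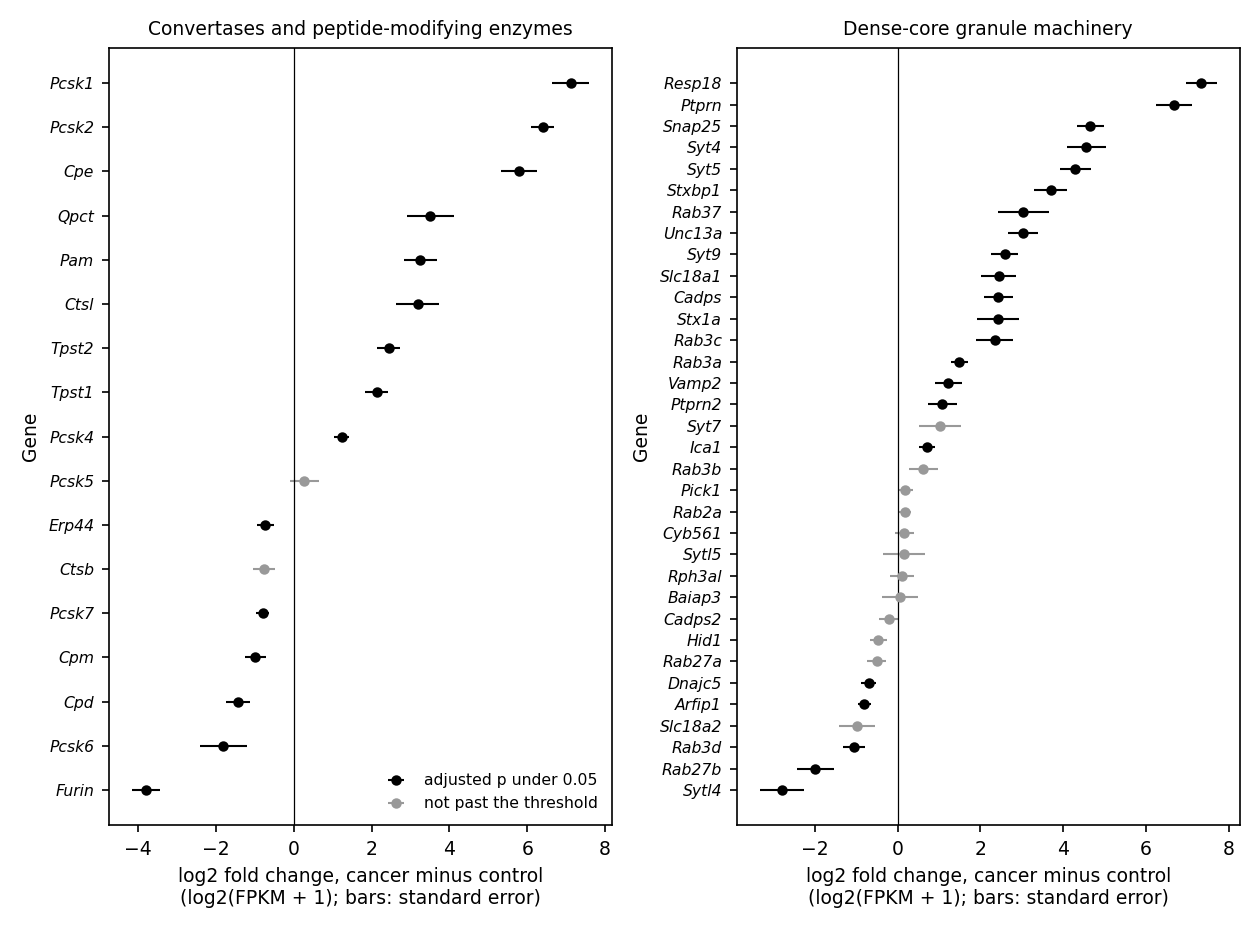
Log2 fold change (cancer minus control, log2(FPKM + 1), horizontal axis) with its SE for each tested gene of 2 lists (vertical axis), the convertases and peptide-modifying enzymes on the left and the dense-core granule machinery on the right. Black points have an adjusted p under 0.05 in limma. Pcsk1, Pcsk2 and Cpe lead the left panel and Furin ends it at -3.80, and Resp18 and Ptprn lead the right panel.

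The hormones that granins are stored with differed from cancer to cancer. Of 23 gut peptide hormone genes 20 were tested, of which 8 rose, 0 fell and 12 were not called by limma (median log2 change 1.99), and at an unadjusted p under 0.05 1 was lower. Over all tested genes 16.2% were higher and 18.3% lower. Without control 1 or control 3 the count was 5. Cck, the cholecystokinin gene, had FPKM of 32719, 7438, 33979, 1507 and 1462 in the tumours and 4, 24 and 9 in the controls (log2 change 9.37, limma adjusted p = 0.0027). Cancers 1 to 3, the cancers with most Cck, were also those with 0.530 or more Chgb per Chga. Sct, the secretin gene, had 334, 496, 739, 217 and 77 against 0, 1 and 0 (log2 change 7.85, limma adjusted p = 0.00079). Calca, the calcitonin gene, had 521, 20, 27, 829 and 1144 and is listed at 0 in the controls (limma adjusted p = 0.0081). Of 8 markers of gastric endocrine cells Cck and Slc18a1, a vesicular amine transporter, rose, and 6 did not pass the threshold. Ghrl, the ghrelin gene, had 0, 381, 86, 1330 and 100 in the tumours and 2526, 2160 and 3471 in the controls, without overlap (log2 change -4.97, limma adjusted p = 0.095). Without cancer 1 its log2 change was -3.37 (limma adjusted p = 0.043), and the other left-out samples gave up to -5.96 (without cancer 4). Sst had 505, 194, 15, 963 and 211 against 232, 186 and 263 (log2 change -0.17, limma adjusted p = 0.92), and its sign reversed with TPM and quantile normalization. Hdc, which makes histamine, reached 171 in cancer 4 and 58 in cancer 5 but 2 to 6 in the others, against 6 to 7 in the controls (limma adjusted p = 0.62). Gast, the gastrin gene, was at 2032 in cancer 2 and at most 7 elsewhere (limma adjusted p = 0.53), and Tph1, which makes serotonin, was at 13, 60 and 33 in cancers 2, 4 and 5 and at 0 elsewhere (limma adjusted p = 0.15).

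Among 27 regulators linked to granin transcription 24 were tested, of which 10 rose, 2 fell and 12 were not called (median log2 change 0.62). Over all tested genes the shares were 16.2% higher and 18.3% lower, so that falls were no more frequent in this list than in general. Pax6, Neurod1 and Rfx6, factors of endocrine differentiation, had the largest rises and are listed at 0 in every control. Neurod1 had FPKM of 53, 25, 90, 34 and 57 in the cancers (limma adjusted p = 0.00036) and Pax6 had 121, 31, 82, 34 and 50 (limma adjusted p = 0.00054). Rfx6 had 36, 9, 54, 18 and 24 (limma adjusted p = 0.0012). Insm1, a zinc finger factor of endocrine cells, had 43, 24, 59, 24 and 52 against 1 in each control (log2 change 4.28, SE 0.33, limma adjusted p = 0.00054). Cancer 2 was the lowest for Pax6, Neurod1 and Rfx6 and shared the lowest Insm1 with cancer 4. The 2 genes that fell encode REST and its corepressor. Rest had 2, 1, 1, 1 and 2 FPKM in the tumours and 3, 5 and 5 in the controls (log2 change -1.16, SE 0.24, limma adjusted p = 0.010), and Rcor1 had 8, 6, 6, 3 and 8 against 26, 20 and 21 (log2 change -1.74, limma adjusted p = 0.0043). With TPM neither passed the threshold (Rest -0.52, adjusted p = 0.24, and Rcor1 -0.88, adjusted p = 0.076), and relative to the shift of all genes they stood at -1.33 and -1.69. The whole list then had 17 genes higher and 0 lower in limma, with 1 lower at an unadjusted p under 0.05. Creb1 and Atf1, whose products bind the cyclic AMP response element printed for Scg2 and Chgb, were not called (adjusted p = 0.51 and 0.12 from limma), while Crem, a further member of that family, rose by 2.60 (limma adjusted p = 0.0016). These 3 genes were named after their values were seen.

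The genes whose pattern was most like that of each granin were found by the root mean square difference of log2(FPKM + 1), centred on each gene, over the 8 samples, among 3467 genes with a mean of at least 20 FPKM in the cancers. All 8 points share the step between cancers and controls, so likeness here mostly means a step of the same size. Pcsk1n was closest to Cpe (0.25 on the log2 scale) and Neurod1 (0.29), followed by Sez6l2, a brain and endocrine membrane protein (0.46). Scg3 was closest to Agt, the angiotensinogen gene (0.26), and Resp18 (0.28), then Sez6l2 (0.48). Chga was closest to Ttyh1 (0.46), Mdm1 (0.47) and Neurod1 (0.54), but Scg2 was nearer to Chga than any of these (0.36). Scg2 was closest to Gc, a vitamin D binding protein (0.35), Pcsk1 (0.44) and Agt (0.45). Scg5 was closest to Pcsk1 (0.45), Ptprn (0.51) and Pcsk2 (0.58), although Vgf was nearer still (0.44). For Vgf the nearest genes outside the family were Tmem27 (0.51), Resp18 (0.55) and Pcsk1 (0.58), and Scg5 was nearer than these. Chgb had no close match, with Sct at 0.68, Resp18 at 0.72 and Ahsg, the fetuin A gene, at 0.98. When only the 5 cancers were used, 0 of these 21 neighbours stayed among the nearest 3, so that the fine pattern across the tumours is not the one that these lists describe.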

How the data were processed

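RNA of 5 SCJ cancers and 3 control SCJ was sequenced (directional libraries per the labels). Per the submitters' processing notes, cutadapt 1.8, TopHat2 2.0.13 and Cuffnorm 2.2.1 were used. The authors quantified mm10 genes and deposited FPKM rounded to whole numbers, and these values were handled as a score, since they are neither counts nor tied to a known depth. The table holds 23361 genes, and 27 symbols that a spreadsheet had turned into dates were restored from the name column beside them. No samples had identical values.

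A gene was tested if 3 or more samples reached 1 FPKM (14357 genes). The test was limma 3.58.1 under R 4.3.3, a linear model of log2(FPKM + 1) by group with moderated variances and a mean-variance trend, and p-values were adjusted over all tested genes by the Benjamini-Hochberg method with a threshold of 0.05. The fit was tested on simulated data rounded like the real values, with a far smaller share of changed genes than was called here. It recovered most changed genes but called more unchanged genes than the threshold intends. Since the setting differs, this does not give the share of false calls in the real counts, which may be lenient. P-values measure the spread between these samples only. Fold changes on this scale understate those of low genes. An exact permutation test of 5 against 3 samples cannot give a p below 0.018, and its values are not printed gene by gene.

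The 7 granins, the gene lists and the tests were chosen with earlier results of these data known. Besides the granins the genes named were Trp53 and Rb1, the partners Pcsk1, Pcsk2, Cpe and Pam, the regulators Rest and Insm1, the endocrine markers Ghrl, Sst, Gast, Hdc and Tph1, in each of the 4 lists the called genes that rose most and fell most (3 each), and the 3 genes nearest to each granin. Marker genes were named from their lists (a marker of the neuron list is not reported here), and Creb1, Atf1 and Crem were added after their values were seen. Promoter windows were RefSeq sequences of GRCm38.p6, searched for exact letters on both strands except for TATAAA. Alternatives were a pseudocount of 0.1, no filter, a mean FPKM of at least 5, TPM, quantile normalization, eBayes without trend, a replicate block, leaving out each sample, centring on the cancers only, and a longer promoter window.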

Additional observations from a re-analysis of the deposited data

Results flagged for a closer look

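Among 58 measures taken over the 5 cancers (the levels of the granins and of the other genes named, marker sums and ratios of granins), 3 had a sample whose gap to its nearest neighbour exceeded the critical share of the range, 0.71. Chance alone flags about 1 in 20, or 2.9 of 58. All 3 stood out through cancer 2, and none was a granin or a ratio of granins. Gast was far higher in cancer 2 than in the other cancers (2032 FPKM, gap 0.727 of the range on the log2 scale). Snap25 was lowest there (33 FPKM, gap 0.711), and Mdm1, a close match of Chga over the 8 samples, was lowest there too (gap 0.748). Cancer 2 was also the cancer with the lowest summed granins (8660 FPKM) and the most gland marker RNA (78716 FPKM). Their part in these gaps was not tested.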

How the results depend on the processing

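The median log2 change of the granins was 6.72 and became 7.71 with TPM, where the median of all genes was 0.81. It lay between 6.47 and 6.93 when 1 sample was left out. Of all genes, 4948 were called, but 7704 with TPM (7176 higher and 528 lower), 3519 with a mean FPKM of at least 5 (1244 higher and 2275 lower) and 1534 with the replicate number as a replicate block (982 higher and 552 lower), of which 1327 were shared. Cancers 4 and 5 have no control of the same number, so the block fit compares only cancers 1 to 3 with controls 1 to 3. Leaving out 1 sample gave 2490 to 5252 calls, with 2490, 2643 and 2815 without control 1, 2 or 3. The replicate block called 9 instead of 15 convertases and modifying enzymes (8 higher and 1 lower) and 10 instead of 22 granule genes (10 higher and 0 lower, or 5 lower at an unadjusted p under 0.05 in limma). The calls of Rest, Cpd, Sytl4, Rab27b, Rab3d and Pcsk6 were lost with the block, that is, over fewer cancers. Their log2 changes there were as large or larger (-1.19, -1.61, -3.24, -2.28, -1.12 and -2.03). Calca lost its call too (adjusted p = 0.069 in limma). Same-numbered cancers and controls did not deviate together (correlations -0.02, -0.19 and -0.10), which gives no sign that the numbers pair samples. These correlations were set against no reference, so they cannot exclude pairing. Left-out samples gave 12 to 14 calls among the convertases, 16 to 23 among the granule genes, 5 to 9 among the hormones and 10 to 14 among the regulators. Rb1, Rest, Rcor1, Cpd, Pcsk6 and Rab3d missed the threshold with TPM. Signs reversed for Trp53 (0.86 with TPM, 0.12 with quantile normalization, -0.29 to 0.027 with 1 sample left out), Sst (0.79, 0.27 and -0.74 to 0.74) and Hdc (-0.94 with the replicate block), with no call except Trp53 under TPM (limma adjusted p = 0.020). The block fit of Hdc compares 2, 6 and 2 FPKM in cancers 1 to 3 with 7, 7 and 6 in the controls. Cancers 4 and 5, at 171 and 58 FPKM, do not enter it. Causes of the other reversals were not tested. Of the values given for single genes, spreads and motifs under these alternatives, 617 stayed on their side of the threshold or within their spread, 30 lost and 1 gained a call, 15 moved further and 9 reversed. With a pseudocount of 0.1 the log2 changes of genes at or near 0 in the controls grew, such as Sct (10.35 against 7.85). Depth is unknown, and levels of 0 to 4 FPKM, where most granins lie in the controls, carry few steps.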
